A study of Homo sapiens with 6 samples.

Results

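Cornified envelope genes were followed in HaCaT cells, an established line of immortalised human keratinocytes, after knockdown of Agrin. The genes were chosen by name, and of 10 named genes 5 were among the 14168 genes of the table, namely IVL, SPRR1B, TGM1, PPL and EVPL. The other 5 (SPRR1A, SPRR2A, SPRR2D, SPRR3 and CDSN) were not analysed here. In 3 libraries the cells carried a control siRNA (siControl) and in 3 others Agrin had been silenced by siRNA (siAgrin), with no other treatment named. Polyadenylated RNA came from whole cultures, and which of the study's Agrin siRNAs was used for sequencing is not given in the sources used here. The study describes its in-vitro work in general as done in biological replicates, while no label says that the 3 libraries of a group came from separate cultures, so p-values measure the spread between these libraries.

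The cornified envelope is the protein shell that replaces the plasma membrane of a keratinocyte as it ends its differentiation. The plakins periplakin (PPL) and envoplakin (EVPL) line the membrane first, involucrin (IVL) is joined to them, transglutaminase 1 (TGM1) forms the crosslinks, and small proline-rich proteins such as SPRR1B act as crossbridges. Lipids are later attached to the outer face of the shell, and in skin the finished envelope is part of the barrier against water loss and injury.

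The listed genes held 40958553 to 43312708 reads per library (median 42367900), so counting error was small for all members except SPRR1B. AGRN, the targeted transcript, measured 797, 833 and 833 CPM in siControl 1, 2 and 3 and 403, 412 and 387 CPM in siAgrin 1, 2 and 3, a fall to 48.8% of its siControl mean, where CPM are reads of a gene scaled to the size of its library. The basal keratinocyte markers KRT5, KRT14, TP63, ITGA6, ITGB4, COL17A1, DSG3 and DSC3 were measured in every library and summed to 9516 to 9796 CPM in siControl and 10963 to 12289 CPM in siAgrin. By the test given below 4 of these 8 were higher in siAgrin and 0 lower (9.14% and 9.07% of all tested genes). The markers were not alike, since the mean of ITGB4 went from 767 CPM in siControl to 677 CPM in siAgrin without passing. All 6 fibroblast markers were measured and summed to 12.2 to 19.6 CPM in siControl and 9.41 to 46.0 CPM in siAgrin, the highest in siAgrin 2. Of 6 endothelial markers CDH5 and TEK were measured, TEK near 0, and they summed to 20.1 to 26.4 CPM in siControl and 1.43 to 2.29 CPM in siAgrin. Of the melanocyte markers PMEL (3.26 to 3.87 and 1.99 to 2.93 CPM) and of the leukocyte markers CD68 and CD14 (35.4 to 46.6 and 24.9 to 36.6 CPM) were measured. Their part in the changes of the members was not tested. In bulk RNA, fewer differentiating cells and less RNA per differentiating cell cannot be told apart.

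Of the 5 envelope genes, 1 rose (SPRR1B), 1 fell (IVL) and 3 (TGM1, PPL and EVPL) did not pass the test. Over all 13050 tested genes 9.14% rose and 9.07% fell, so single calls in each direction among 5 genes are not a result about the group. The median log2 fold change of the 5 was 0.03, against -0.00185 over all tested genes. Rose and fell here mean an adjusted p below 0.01 from limma, on log2(CPM + 0.5) with Benjamini-Hochberg adjustment over all tested genes, and fold changes compare siAgrin with siControl. Both called members moved by about a factor of 2 or more, and 1.38% of tested genes had a larger absolute log2 fold change than IVL and 1.25% a larger one than SPRR1B.

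**Figure D1:**
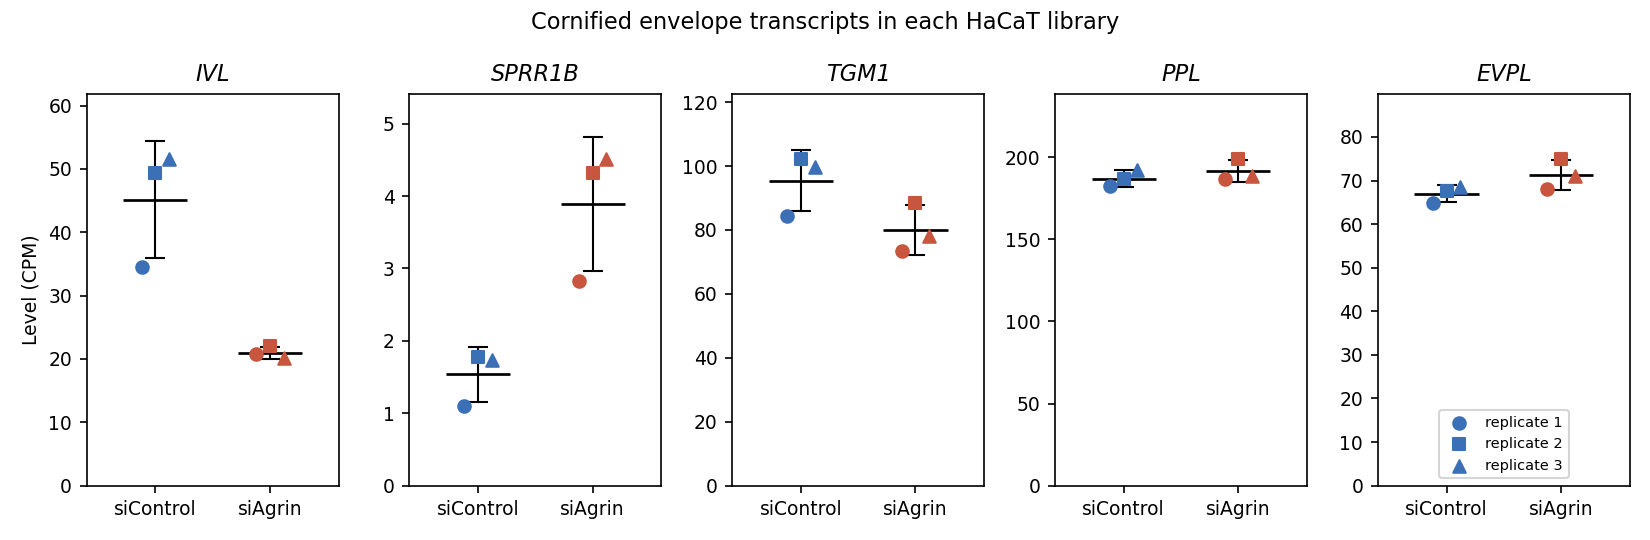
Level of each cornified envelope gene (CPM, linear axes from 0) in the 3 siControl and 3 siAgrin libraries, with 1 point per library, the mean as a bar and the SD as the error bar (n = 3). All siAgrin points lie below the siControl points for IVL and above them for SPRR1B, whereas the groups overlap for TGM1, PPL and EVPL.

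IVL encodes involucrin, the glutamine-rich scaffold onto which other envelope proteins are crosslinked. It measured 34.5, 49.4 and 51.6 CPM in siControl 1, 2 and 3 and 20.8, 22.0 and 20.1 CPM in siAgrin 1, 2 and 3. The siAgrin libraries lay close together and all below the lowest siControl library, while siControl 1 stood below the other two. Mean levels were 45.2 ± 9.29 CPM in siControl and 21.0 ± 0.956 CPM in siAgrin (SD, n = 3), a fall to 46.5% of the control level. The log2 fold change was -1.07 with a standard error of 0.14 and a 95% interval of -1.38 to -0.75 (limma, adjusted p = 0.0012). Groups that do not overlap are common here, at 50.0% of all tested genes. Without siAgrin 3 the adjusted p was 0.0105, just outside the threshold, and with any other single library left out it stayed between 0.000293 and 0.00909.

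SPRR1B encodes a small proline-rich protein that transglutaminases attach at both of its ends. It measured 1.10, 1.78 and 1.74 CPM in siControl 1, 2 and 3 and 2.83, 4.32 and 4.51 CPM in siAgrin 1, 2 and 3. Every siAgrin library was above every siControl library, and replicate 1 was the lowest of each group. These levels rest on 51, 82 and 81 reads in siControl and 128, 198 and 208 reads in siAgrin, and 8.72% of tested genes had a lower mean. The exact Poisson 95% intervals, which cover counting error only, reached 1.41 to 2.20 CPM in siControl 2, the highest siControl library, and 2.36 to 3.37 CPM in siAgrin 1, the lowest siAgrin library. Mean levels were 1.54 ± 0.383 CPM in siControl and 3.89 ± 0.920 CPM in siAgrin (SD, n = 3), a ratio of 2.53. The log2 fold change was 1.10 with a standard error of 0.19 and a 95% interval of 0.65 to 1.55 (limma, adjusted p = 0.0043), and the added 0.5 CPM lowers it for a gene at this level. The call was lost without siControl 1, 2 or 3 (adjusted p = 0.0121, 0.0146 and 0.0154), without siAgrin 3 (0.0266) and with no filter on low genes (0.0144), at log2 fold changes of 0.94 to 1.19.

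Both genes are on the plus strand of chromosome 1 of GRCh38, IVL from 152908546 to 152911886 and SPRR1B from 153031203 to 153032900, with 119 kb between them. Within a library, IVL had 31.5, 27.8 and 29.7 times the CPM of SPRR1B in siControl 1, 2 and 3. In siAgrin 1, 2 and 3 it had 7.35, 5.10 and 4.46 times. The ratio of CPM, which does not depend on scaling between libraries, was thus lower in every siAgrin library. On the log2(CPM + 0.5) scale it was lower by 2.17, a value that the added 0.5 CPM leaves partly dependent on scaling. The ratio restates both calls, since the groups of each gene already lay apart, in opposite directions. The exact permutation p (two-sided, 0.1, the smallest that 3 libraries against 3 allow) was therefore fixed in advance. The pair was also chosen after the values were seen.

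The sequences just upstream of these members are shown because both genes lie in the same region and moved in opposite directions. They are not shown to be adjacent, since only 18 of 63 protein-coding genes between S100A10 and S100A1 were measured. They are the 250 bases before the RefSeq start site (build GRCh38.p14), chr1:152908296-152908545 for IVL and chr1:153030953-153031202 for SPRR1B, both on the plus strand. Capitals mark matches to TGANTCA, which takes in the AP-1 consensus (TGAGTCA or TGACTCA) and looser letters, and to the TATA box letters TATAAA.
IVL: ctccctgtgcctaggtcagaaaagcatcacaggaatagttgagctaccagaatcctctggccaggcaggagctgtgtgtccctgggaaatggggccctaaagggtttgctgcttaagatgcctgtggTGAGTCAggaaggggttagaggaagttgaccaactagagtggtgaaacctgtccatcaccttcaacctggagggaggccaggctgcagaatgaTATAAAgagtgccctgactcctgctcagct
SPRR1B: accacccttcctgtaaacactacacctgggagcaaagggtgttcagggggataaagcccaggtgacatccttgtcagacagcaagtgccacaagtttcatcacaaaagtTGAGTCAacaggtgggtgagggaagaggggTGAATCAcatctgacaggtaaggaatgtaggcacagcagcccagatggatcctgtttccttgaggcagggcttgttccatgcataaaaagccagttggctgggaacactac
The IVL window held 1 such match, TGAGTCA at -123 to -117 from the start site, and a TATAAA at -30 to -25. The SPRR1B window held TGAGTCA at -141 to -135 and, outside the strict consensus, TGAATCA at -111 to -105, and no exact TATAAA. Looser letters were allowed for AP-1 but not for the TATA box, and this window holds CATAAA near its end. The search therefore does not show that SPRR1B lacks a TATA box. Of 35114 RefSeq promoter windows of the same length, 6.57% held TGANTCA at least once on either strand, 0.402% held 2 or more of these looser matches, and 10.7% held TATAAA. The ETS letters AGGAAG, searched on both strands, were found at -117 to -112 and -104 to -99 in IVL, the first sharing 1 base with TGAGTCA. In SPRR1B they were found at -244 to -239. Of all windows, 28.7% held them at least once and 5.77% held them 2 or more times. Neither window held the octamer ATGCAAAT (1.63% of all windows) or the GC box GGGCGG (42.6%). A match is a description of letters and not a binding site.

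TGM1 encodes transglutaminase 1, the membrane-anchored enzyme that crosslinks involucrin and its partners. It measured 84.4, 102 and 99.7 CPM in siControl 1, 2 and 3 and 73.5, 88.6 and 78.1 CPM in siAgrin 1, 2 and 3. The groups overlapped, since siAgrin 2 was above siControl 1. Mean levels were 95.5 ± 9.63 CPM in siControl and 80.1 ± 7.74 CPM in siAgrin (SD, n = 3). TGM1 did not pass the test at a log2 fold change of -0.25 with a standard error of 0.09 (limma, adjusted p = 0.06), and its 95% interval of -0.46 to -0.04 reached down to a ratio of 0.728. With replicate number as a block, a pairing that no label gives, TGM1 passed as lower (limma, adjusted p = 0.00185). In CPM, uncorrected for length, the enzyme gene was 2.45, 2.07 and 1.93 times its substrate gene IVL in siControl 1, 2 and 3, and 3.53, 4.02 and 3.88 times in siAgrin 1, 2 and 3. This ratio was higher in every siAgrin library (exact permutation test, two-sided p = 0.1, the smallest possible). It was chosen after the values were seen and largely restates the fall of IVL. TGM1 lies on the minus strand of chromosome 14 from 24249114 to 24264432.

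The plakin genes PPL and EVPL, whose products pair with each other beneath the membrane, were the steadiest members. PPL measured 182, 186 and 192 CPM in siControl 1, 2 and 3 and 187, 199 and 189 CPM in siAgrin 1, 2 and 3, with overlapping groups. Its log2 fold change was 0.03 with a standard error of 0.04 (limma, adjusted p = 0.57), and its 95% interval ran from a ratio of 0.955 to 1.10. EVPL measured 64.8, 67.5 and 68.6 CPM in siControl 1, 2 and 3 and 68.1, 74.97 and 70.9 CPM in siAgrin 1, 2 and 3, and only siAgrin 1 lay within the siControl range. For EVPL the log2 fold change was 0.09 with a standard error of 0.05 (limma, adjusted p = 0.18) and an interval from 0.985 to 1.15 as a ratio. The intervals of both plakin genes were narrower than those of the other members. PPL lies on chromosome 16 from 4882507 to 4960741 and EVPL on chromosome 17 from 76004502 to 76027306, both on the minus strand.

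The ratio of PPL to EVPL, which should be little affected by library scaling, was nearly constant. PPL had 2.81, 2.76 and 2.81 times the CPM of EVPL in siControl 1, 2 and 3 and 2.74, 2.65 and 2.66 times in siAgrin 1, 2 and 3. Each siAgrin ratio was below each siControl ratio, but the difference was only -0.06 on the log2 scale (exact permutation test, two-sided p = 0.1, the smallest possible). A total of 4 ratios between members were computed, and each had an exact permutation p of 0.1 before and after Benjamini-Hochberg adjustment over the 4. Those of IVL to SPRR1B, TGM1 to IVL and IVL to EVPL were chosen after the values were seen.

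Per kilobase of transcript, TGM1 and PPL were the highest members in both groups. In siControl, TGM1 had 30.8 to 37.3 CPM per kb, PPL 29.1 to 30.8, IVL 16.04 to 23.97, EVPL 10.0 to 10.6 and SPRR1B 1.77 to 2.87. TGM1 and PPL overlapped, and the other neighbours in this order did not. In siAgrin, PPL had 29.9 to 31.8 CPM per kb, TGM1 26.8 to 32.3, EVPL 10.5 to 11.6, IVL 9.36 to 10.2 and SPRR1B 4.58 to 7.29, and again only PPL and TGM1 overlapped. IVL thus stood above EVPL in every siControl library and below it in every siAgrin library, a description that restates the fall of IVL against the steadier EVPL. SPRR1B stayed the lowest member in each library. Lengths are those of the GENCODE v44 canonical transcripts, from 0.619 kb for SPRR1B to 6.468 kb for EVPL.

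The order of the replicates within a group was alike for most members. Replicate siControl 1 had the lowest level of its group for all 5 members, and siAgrin 1 for 4 of 5, the exception being IVL, which was lowest in siAgrin 3. Replicate siAgrin 2 was the highest of its group for 4 of 5, with SPRR1B higher in siAgrin 3. The same order over all genes was not computed, so these counts are not a result about the members. The listed genes held 91.0%, 92.7% and 93.0% of the library in siControl 1, 2 and 3. In siAgrin 1, 2 and 3 they held 90.7%, 92.5% and 91.5%. The spread was uneven, with a coefficient of variation in siControl of 24.9% for SPRR1B and 20.6% for IVL, 10.1% for TGM1, 2.90% for EVPL and 2.76% for PPL. For IVL it was 4.55% in siAgrin. Library siAgrin 2 also had the highest fibroblast markers. Without this library the calls stood for IVL (adjusted p = 0.000635 from limma) and SPRR1B (adjusted p = 0.00478). The part of fibroblast-type RNA in either change was not tested.

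IVL and SPRR1B lie in the epidermal differentiation complex, a cluster of envelope, filaggrin-type and S100 genes. Many of these, but not all, are expressed mainly in the upper epidermis. Between S100A10 and S100A1 on chromosome 1 (151982915 to 153632039, 1649 kb) the table held 18 of 63 protein-coding genes, members included, of which 3 rose, 5 fell and 10 did not pass (9.14% and 9.07% of all tested genes rose and fell). Besides SPRR1B, S100A10 and S100A2 rose, at log2 fold changes of 0.35 and 0.28. Besides IVL, the falls were in TCHH, which encodes trichohyalin (log2 fold change -0.95), the peptidoglycan recognition genes PGLYRP3 and PGLYRP4 (-0.84 and -1.31) and S100A7, which encodes psoriasin (-1.39). These other falls were at low levels. Means in siControl and siAgrin were 3.30 and 1.47 CPM for TCHH and 3.50 and 1.76 CPM for PGLYRP3. PGLYRP4 averaged 6.05 and 2.17 CPM, and S100A7 2.32 and 0.576 CPM. With a mean of at least 5 CPM required, 11 of the 18 were tested, of which 2 rose and 1 fell (IVL). PGLYRP3, PGLYRP4, S100A2 and S100A7 were singled out by position after their values were seen. The number that rose was 1, 0 and 1 without siControl 1, 2 and 3 and 0 without siAgrin 3, and the number that fell was 2 without siAgrin 3 and 8 without siAgrin 2 (limma, same threshold). Calls over all tested genes, 2377 with every library, numbered 1553, 667 and 765 without siControl 1, 2 and 3. They numbered 3362 without siAgrin 2 and 571 without siAgrin 3.

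**Figure D2:**
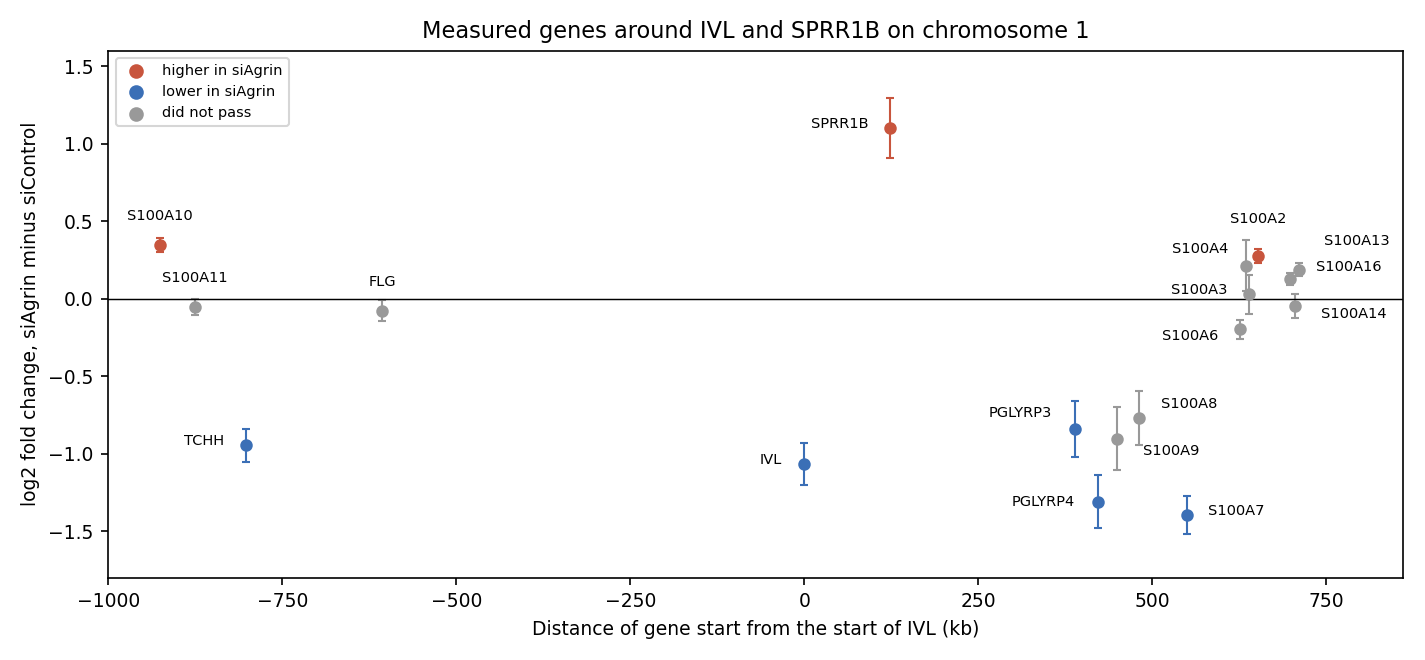
Log2 fold change (siAgrin minus siControl, on log2(CPM + 0.5), error bars the standard error) of the 18 measured genes between S100A10 and S100A1, against the distance of each gene's start from that of IVL in kb. IVL at -1.07 and SPRR1B at 1.10, whose starts are 123 kb apart, lie on opposite sides of 0.

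Among other genes of envelope formation, 11 of 64 tested genes in 7 lists rose, 9 fell and 44 did not pass. The shares of 17.2% and 14.1% compare with 9.14% and 9.07% of all tested genes, and the median log2 fold change of the 64 was -0.03. Plakins related to PPL and EVPL were the list with the most rises. Of 6 genes of plakins and the periplakin-binding kazrin 4 rose, at a median log2 fold change of 0.35. Desmoplakin (DSP), which ties keratin filaments to desmosomes, averaged 623 ± 4.43 CPM in siControl and 901 ± 39.9 CPM in siAgrin (SD, n = 3), a log2 fold change of 0.53 with an adjusted p of 0.00036 from limma. Epiplakin (EPPK1), dystonin (DST) and MACF1 rose by log2 fold changes of 0.63, 0.34 and 0.36, while PLEC at -0.02 and KAZN at -0.18 did not pass, as PPL and EVPL did not. Plakin genes that rose numbered 2 without siControl 2 or siAgrin 3. Over the 7 lists the rises numbered 6, 7 and 4 without siControl 2, siControl 3 and siAgrin 3, and the falls 4 without siAgrin 3. Calls over all tested genes also dropped there, from 2377 in either direction to 667, 765 and 571.

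Other precursors and crosslinking substrates gave mixed values. Of the other precursors in the complex only FLG and TCHH were measured, and the filaggrin gene FLG, at 52.9 ± 3.22 CPM in siControl and 50.1 ± 3.89 CPM in siAgrin, did not pass (log2 fold change -0.08, adjusted p = 0.41 from limma). TCHH fell, at a low level, from 3.30 ± 0.315 to 1.47 ± 0.170 CPM (adjusted p = 0.00078 from limma). Of 6 further transglutaminases and substrates ANXA1, the annexin A1 gene, rose from 1256 ± 22.1 to 1806 ± 83.3 CPM, as did S100A10 from 507 ± 14.4 to 644 ± 8.47 CPM (SD, n = 3). Over all tested genes 9.14% rose and 9.07% fell. The rises in this list numbered 1 without siControl 2 or siAgrin 3 and 3 without siAgrin 1. Calls over all tested genes, 2377 with every library, numbered 667, 571 and 2418 without siControl 2, siAgrin 3 and siAgrin 1. TGM2, the other measured transglutaminase, was near 1 CPM in both groups (1.04 ± 0.274 and 1.25 ± 0.621 CPM) and did not pass.

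Of 8 genes of terminal differentiation, 2 rose and 2 fell, and of 10 lipid envelope genes 2 rose and 1 fell, where 9.14% of all tested genes rose and 9.07% fell. CASP14, a caspase of cornifying cells that takes part in filaggrin breakdown, went from 2.74 ± 0.229 to 5.40 ± 0.437 CPM (SD, n = 3) and SPINK5, an inhibitor of skin kallikreins, from 8.57 ± 0.679 to 12.6 ± 0.740 CPM. Keratin 1 (KRT1), a keratin of suprabasal cells, went from 4.97 ± 1.36 to 2.39 ± 0.518 CPM and the corneodesmosome protease KLK7 from 21.8 ± 0.717 to 14.2 ± 0.337 CPM, while KRT10, the partner of keratin 1, at 27.9 ± 1.17 and 26.6 ± 3.65 CPM, did not pass. Among the lipid envelope genes the fatty acid elongase ELOVL1 and the sphingomyelinase SMPD1 rose, at log2 fold changes of 0.23 and 0.72, and the steroid sulfatase STS fell, at -0.56. The counts in each direction in these lists changed by no more than 1 with a single library left out, apart from the lipid envelope rises, ELOVL1 and SMPD1, which did not pass without siAgrin 3. Without siAgrin 3 only 571 of all tested genes were called, against 2377 with every library.

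**Figure D3:**
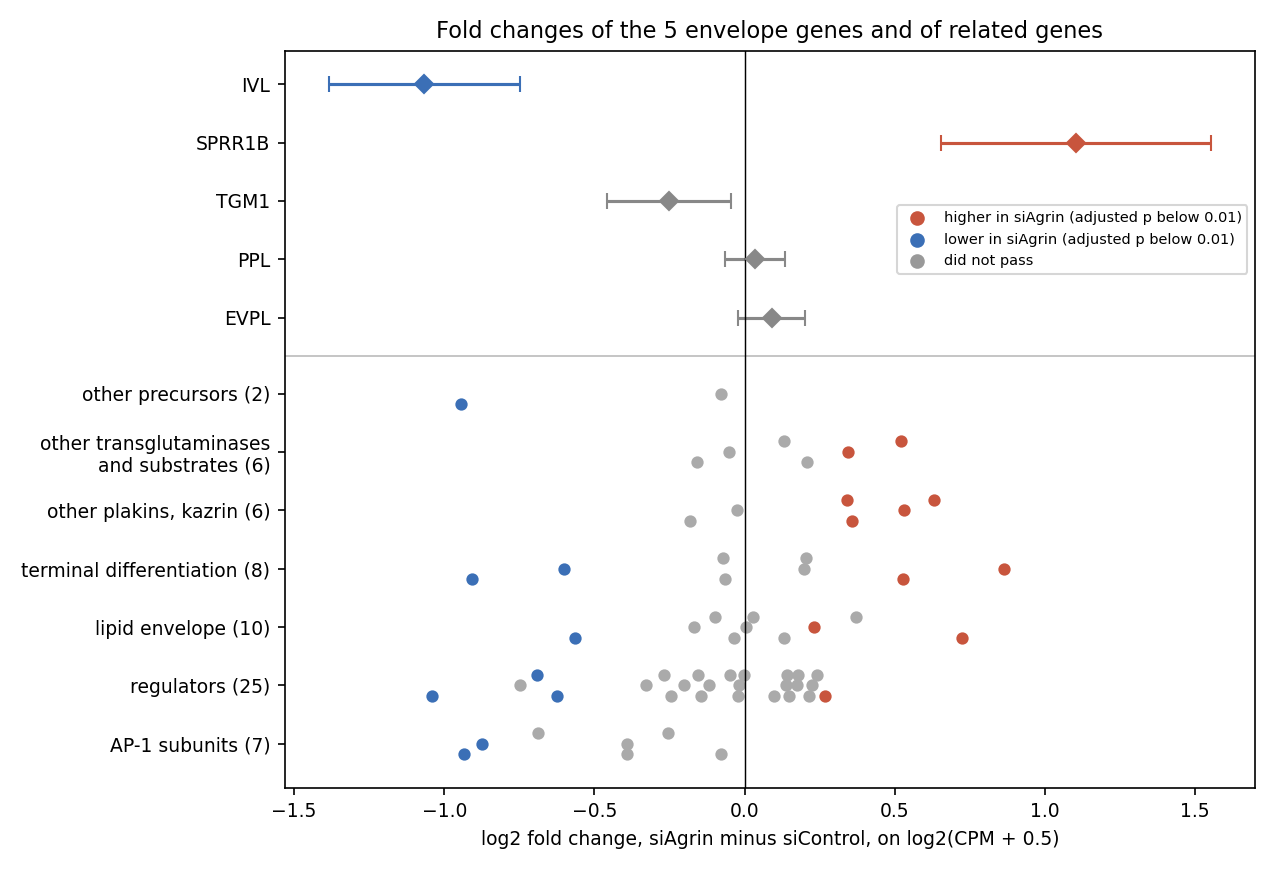
Log2 fold change (siAgrin minus siControl, on log2(CPM + 0.5)) of the 5 envelope genes, with 95% intervals, and of the tested genes of 7 related lists, 1 point per gene, with the number tested in parentheses and vertical offsets only for legibility. IVL and TCHH lie near -1, SPRR1B above 1, and 4 of 6 genes in the row of other plakins and kazrin rose.

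Of 25 regulators of keratinocyte differentiation 1 rose and 3 fell, and 21 did not pass, a count near the background of 9.14% higher and 9.07% lower over all tested genes. The rise was lost without siControl 2, siControl 3 or siAgrin 3, and the falls numbered 1 without siAgrin 3. Over all tested genes 667, 765 and 571 were called without these libraries and 3362 without siAgrin 2, against 2377 with every library. The ETS factor ELF3, which is known to act on SPRR promoters, averaged 1259.8 ± 130.0 CPM in siControl and 617 ± 116 CPM in siAgrin (SD, n = 3), a log2 fold change of -1.04 with an adjusted p of 0.0011 from limma. GATA3 fell from 35.1 ± 0.738 to 21.7 ± 3.02 CPM, the kinase RIPK4 from 516 ± 12.3 to 335 ± 20.5 CPM, and EHF, another ETS factor, rose from 160.2 ± 3.33 to 193 ± 3.05 CPM. Of 7 AP-1 subunits JUND fell from 103 ± 2.97 to 56.7 ± 11.6 CPM and FOSB from 4.59 ± 0.585 to 2.18 ± 0.526 CPM, while the other 5 had log2 fold changes from -0.69 (FOS) to -0.08 (FOSL2). JUND and FOSB did not pass without siControl 2, siControl 3 or siAgrin 3, and 5 AP-1 subunits fell without siAgrin 2. These values stand beside those of IVL and SPRR1B, and their part in either change was not tested.

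The genes whose levels followed the called members most closely were taken among 11019 genes that averaged 5 CPM or more, by Pearson r of log2(CPM + 0.5) over the 6 libraries. For IVL they were SLC9A8 and HIGD2A (r = 0.996 and 0.995) and CEL (r = 0.995), with log2 fold changes of -0.27, -0.24 and -1.46. For SPRR1B they were MYO5A, STPG1 and EHBP1 (r = 0.997, 0.996 and 0.996). MYO5A went from 31.0 to 34.7 CPM, so a like pattern over libraries did not mean a change of like size. The 6 points share 2 groups, and no p is given.

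Reads of the members could be assigned to 1 place for most of their exon sequence. Of 75-base windows within exons, the read length used, 0 of 500 in SPRR1B, 0 of 2551 in TGM1, 0 of 6029 in PPL and 0 of 5845 in EVPL occurred a second time in hg38, exact matches only. In IVL 106 of 2034 windows (5.21%) occurred again, all of them within IVL itself. Reads from related SPRR genes with mismatches were not considered. In GENCODE v44 the antisense partners of members are a long noncoding RNA for IVL, SEC14L5 for PPL, and CDK3 and TEN1-CDK3 for EVPL. The strand setting of the counting is not given in the sources used here, and without strand such reads cannot be told apart.

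Under 18 other settings IVL passed in 17 and TGM1 in 1, and under 17 settings that tested it SPRR1B passed in 12, while PPL and EVPL passed in none (limma, edgeR and DESeq2, adjusted p from 0.412 to 0.93 and from 0.0758 to 0.375). Of these settings, an adjusted p below 0.05 reused the reported fit, so IVL and SPRR1B passed it by construction. No member changed direction in any setting. The log2 fold change ran from -1.25 to -0.96 for IVL and from 0.73 to 1.34 for SPRR1B, where the lowest value came from adding 2 CPM. On whole reads, edgeR gave -1.11 for IVL and 1.34 for SPRR1B (adjusted p = 0.00121 and 0.00432).

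**Figure D4:**
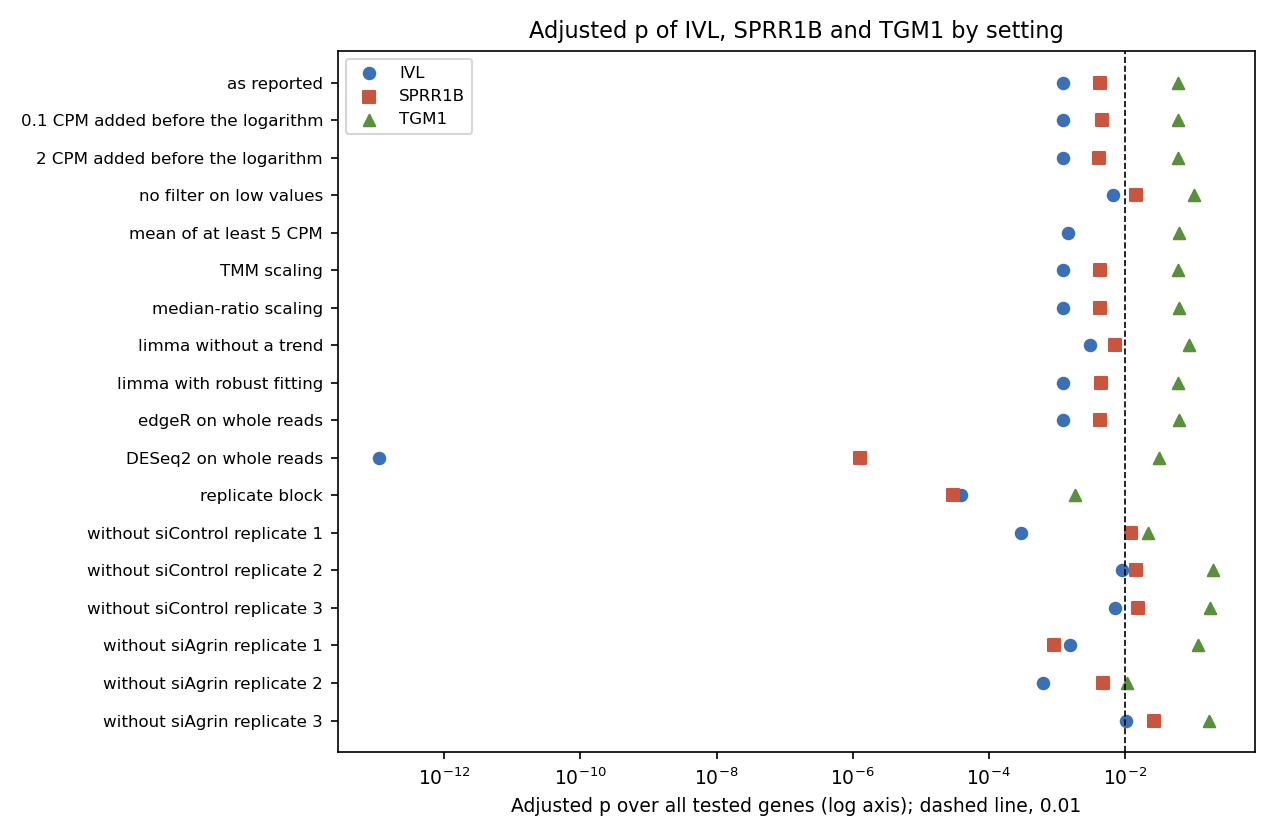
Adjusted p over all tested genes (log axis) of IVL, SPRR1B and TGM1 as reported and under each other setting, with the threshold of 0.01 dashed. The setting of an adjusted p below 0.05, which reuses the reported fit, is not drawn. SPRR1B, at 0.0043 as reported, lies right of the line without any single siControl library, without siAgrin 3 and with no filter, IVL only without siAgrin 3, and TGM1 lies left of it only with replicate number as a block.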

How the data were processed

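Polyadenylated RNA of HaCaT cells was sequenced in 3 siControl and 3 siAgrin libraries. The labels and the study's methods name different culture media and RNA kits. Reads of 75 bases were mapped by the authors to hg38 (STAR 2.6.1d), summarised per gene with HTSeq and passed to edgeR, and they deposited CPM for every listed gene in each library. Divided by the CPM worth of a single read, 100.0% of values were whole numbers to within 0.01, so whole reads were recovered. No sample column was left out.

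The groups were compared with limma 3.58.1 in R 4.3.3 on log2(CPM + 0.5), using its trend option and two-sided tests, at an adjusted p below 0.01. A gene was tested if 3 or more libraries had 0.5 CPM or more (13050 genes). On the reads, edgeR 4.0.16 called 2360 genes and DESeq2 1.42.0 called 3361, against 2377 in limma. Without its trend option limma called 1903, and with no filter on low genes 1678. Besides these, other pseudocounts, filters and scalings, a replicate block and leaving out each library were alternatives. Scripts were tested on simulated counts. Positions and lengths are from GENCODE v44 (the authors counted on another release of the same build), and upstream sequences from RefSeq, matched by symbol for 2 of the 5 members.

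The members and gene lists were chosen with earlier results of these data known. The text names AGRN, all members, up to 4 called genes per list with the smallest p-value, exceptions, and the 3 genes most like each called member. A ratio of SPRR1B to SPRR1A was planned and could not be made, since SPRR1A was not analysed here.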

Additional observations from a re-analysis of the deposited data

How the results depend on the processing

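With any single library left out, the genes called numbered 571 to 3362, the envelope genes that rose 0 to 1 and those that fell 0 to 1, the related genes that rose 4 to 14 and those that fell 4 to 13, and the log2 difference in the PPL to EVPL ratio ran from -0.0711 to -0.0485. Where no envelope gene rose (limma without siControl 1, 2 or 3 or siAgrin 3, and with no filter), SPRR1B had an unadjusted p below 0.05, and where none fell (without siAgrin 3) IVL had. SPRR1B rose in edgeR and DESeq2 on all 6 libraries, and these tools were not run with a library left out. With a mean of at least 5 CPM required, SPRR1B was not tested and 0 rose. At an adjusted p below 0.05 the counts were 4802 of all genes and 17 related genes that fell. With replicate number as a block they were 3966 of all genes, 2 envelope genes that fell, IVL and TGM1 (adjusted p of TGM1 0.00185), and 16 related genes that fell. The deviations of same-numbered libraries correlated at 0.53, 0.38 and -0.0018. Libraries siControl 1 and siControl 2 correlated best with the siAgrin library of the same number, and siControl 3 with siAgrin 2 (0.347). Deviations within a group sum to 0, so these correlations depend on one another. They cannot tell whether same-numbered libraries shared a culture or day, and no label says so. TMM and median-ratio scaling changed no call of a member. Among the members, depth limits SPRR1B alone, at 51 to 208 reads.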
